A study of Mus musculus with 20 samples.

Results

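The liver methylome of 21-day-old control mice, Con-d21, is described here as a state. The group holds 5 of the 20 reduced representation bisulfite sequencing (RRBS) libraries of the series, and its members are the autosomal CpGs read at least 10 times in all 5. These were 843518 of the 2912035 autosomal CpGs with a read in any of the 5 libraries, against 598055 of 4204508 over the whole series. Con-d21 livers came from wild-type C57BL/6J males of a group of 5 litters. Their dams ate a low-fat control diet from 5 weeks before mating through pregnancy and lactation and were not stressed. The pups were taken at weaning (d21) after a fast of 5 h, and DNA was made from whole liver. They are set only against Con-d0, 5 male livers of the same strain and maternal treatment taken at birth by C-section. The study's other groups were pups of dams on a Western-style diet, raised in fat, sucrose and cholesterol, that were also stressed late in pregnancy. Those groups were not analysed here. RRBS cuts DNA with MspI, whose site contains a CpG, and sequences the short fragments, which are rich in CpGs. Bisulfite converts unmethylated cytosines only, so each read reports a CpG as methylated or not, and the methylation level is the percent of reads that are methylated. Means over these CpGs are therefore means of the RRBS fraction and not of the genome.

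In mammals CpG methylation is placed by the Dnmt3 enzymes, copied at replication by Dnmt1 with Uhrf1, and removed through the Tet enzymes and Tdg. Most CpGs of a somatic genome are methylated, while clusters of CpGs at gene starts (CpG islands) are mostly not. Known exceptions are imprinted control regions, methylated on the allele of one parent only, and the promoters of many germline genes, which are methylated in somatic tissue.

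Stretches of 6 promoters show the levels found in Con-d21. All are from GRCm38 (the assembly of mm10), 5′ to 3′ along the strand of the gene, with the C and G of each measured CpG in capitals. Distances are from the transcription start site (TSS), the 5′ end of the annotated gene. The first 2 are unmethylated, the next 2 intermediate and the last 2 methylated. Actb, cytoskeletal actin, is the housekeeping example, an intronic stretch at chr5:142905938-142906196 (minus strand) with 26 CpGs at 0.0220% ± 0.0491 (SD, n = 5). Cyp2j6, a cytochrome P450, is shown as a promoter that was unmethylated although the 2 kb around its TSS were poor in CpGs. Its coding stretch at chr4:96553280-96553451 (minus strand) has 7 CpGs at 2.22% ± 1.73. Airn, the long non-coding RNA of an imprinted cluster, is shown for its even intermediate level, with 9 intronic CpGs at chr17:12741575-12741756 (plus strand) of 39.95% ± 10.1. Dazl, an RNA-binding protein of germ cells, is shown for a step, in an intronic stretch at chr17:50293072-50293218 (minus strand). Hsf5, a heat shock factor of the testis, is shown upstream of its TSS, between genes, at chr11:87616976-87617118 (plus strand), with 16 CpGs at 89.9% ± 2.95. Rpl10l, a ribosomal protein of the testis, is shown for 13 coding CpGs at 92.6% ± 0.721 at chr12:66283862-66284034 (minus strand). Airn and the Dazl stretch were chosen after their values were seen.
Actb: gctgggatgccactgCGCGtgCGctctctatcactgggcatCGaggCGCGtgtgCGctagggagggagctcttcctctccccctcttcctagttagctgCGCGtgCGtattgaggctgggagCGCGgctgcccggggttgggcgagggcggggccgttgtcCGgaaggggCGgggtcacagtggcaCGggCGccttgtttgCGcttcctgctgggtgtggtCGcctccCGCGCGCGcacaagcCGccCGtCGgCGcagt
Cyp2j6: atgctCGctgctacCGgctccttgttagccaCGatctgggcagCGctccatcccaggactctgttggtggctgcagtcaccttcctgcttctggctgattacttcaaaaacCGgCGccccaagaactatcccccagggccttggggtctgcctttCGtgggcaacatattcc
Airn: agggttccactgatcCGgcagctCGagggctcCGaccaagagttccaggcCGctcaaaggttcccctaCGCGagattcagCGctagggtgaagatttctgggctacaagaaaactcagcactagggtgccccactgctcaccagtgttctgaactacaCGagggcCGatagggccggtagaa
Dazl: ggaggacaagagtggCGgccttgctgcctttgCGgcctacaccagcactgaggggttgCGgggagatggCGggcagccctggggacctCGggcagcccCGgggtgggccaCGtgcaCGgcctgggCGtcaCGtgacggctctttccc
Hsf5: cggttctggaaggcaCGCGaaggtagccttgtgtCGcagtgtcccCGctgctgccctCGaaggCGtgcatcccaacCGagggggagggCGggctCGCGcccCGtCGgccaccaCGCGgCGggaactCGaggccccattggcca
Rpl10l: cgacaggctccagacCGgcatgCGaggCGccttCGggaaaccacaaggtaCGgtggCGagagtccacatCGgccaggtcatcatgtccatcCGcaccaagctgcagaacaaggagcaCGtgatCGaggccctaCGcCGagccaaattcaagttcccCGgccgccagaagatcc

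Read along these stretches, the levels followed 3 patterns. In Dazl the first 4 CpGs printed had 95.0%, 85.9%, 93.9% and 77.7%, the next 2 had 21.8% and 21.4%, and the last 4 had 4.56%, 11.2%, 4.30% and 3.74%. The step therefore fell between adjacent CpGs of 1 fragment, in all 5 libraries: the fourth CpG had 83.9%, 75.7%, 69.4%, 77.1% and 82.4%, and the fifth had 22.6%, 24.3%, 24.5%, 17.1% and 20.6%. In Airn the 9 CpGs had mean levels of 38.2% to 40.8%, and within a library most had the same level. Their medians were 41.9%, 53.7%, 27.3%, 48.0% and 33.3% in the 5 libraries, with 12 to 41 reads per CpG. CpGs of 1 fragment are read by the same reads, so they are not independent, and the spread over libraries can exceed the counting error computed from all reads. In Hsf5 and Rpl10l single CpGs ranged from 61.5% to 99.3% and from 78.9% to 97.4%.

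The 5 libraries held 29189314 to 37692136 reads over CpGs, and the median member had 23 to 30 reads per library. Reads were amplified and carry no molecular identifiers, so counting errors given here cover counting only. Over 843518 CpGs the libraries correlated with each other at r = 0.979 to 0.982 (10 pairs, across CpGs, which are not independent), with a mean absolute difference of 4.64 to 5.03 percentage points. The root mean square SD over libraries of a CpG was 5.86 points, of which binomial counting alone would give 5.47. The 5 livers thus differed little beyond counting at single CpGs. No library stood apart in its mean level.

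Mean methylation of the members was 41.3%, 41.4%, 41.5%, 41.5% and 41.6% in the 5 libraries, 41.5% ± 0.123. Few CpGs were near this mean. In the average of the 5 libraries, 393589 CpGs (46.7%) were under 10% and had a mean of 0.808%, 366078 (43.4%) were over 60% with a mean of 86.6%, and 83851 (9.94%) lay from 10% to 60%. No methylated read was seen at 260889 CpGs (30.9%), with a median of 138 reads over the 5 libraries, which allows a level of up to 2.17% there. Only 2282 CpGs (0.271%) were methylated in every read. In whole liver an intermediate level can come from a share of the cells or of the alleles, and these, like fewer cells of a type and a change within cells, cannot be told apart.

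Exons had the lowest mean level, 25.1% ± 0.0963 over 306439 CpGs. Introns had 46.8% ± 0.122 over 282327 CpGs, and the CpGs between genes 55.2% ± 0.159 over 254752. Within exons the parts of the transcript spanned the whole range. The 5′ untranslated regions had 2.31% ± 0.0294, coding exons 37.3%, exons of non-coding transcripts 28.2% and 3′ untranslated regions 60.4%. Repeats (soft-masked sequence) had 77.2%, against 34.9% outside them.

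Much of this order followed the distance to a TSS. Within 1 kb of a TSS, where 341592 (40.5%) of the CpGs lay, the mean was 7.52% ± 0.0530, and beyond 5 kb, with 376058 CpGs (44.6%), it was 71.1% ± 0.178. Beyond 5 kb, the CpGs between genes had 73.8%, introns 71.1% and exons 65.3%, so exons had the lowest mean there too. The median CpG there was nevertheless highest in exons, at 85.7%, against 84.6% in introns and 85.1% between genes. Within those exons coding parts had 71.0%, 3′ untranslated regions 72.7% and non-coding transcripts 63.2%. The 5′ untranslated regions remained low at 10.3%; these lie far from the 5′ end of any gene and belong to other annotated transcripts. Within 1 kb the CpGs between genes had 9.78%, introns 7.39%, coding exons 7.33% and 5′ untranslated regions 1.57%, while exons of non-coding transcripts had 18.7% and the 1632 CpGs of 3′ untranslated regions 25.9%.

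**Figure D1:**
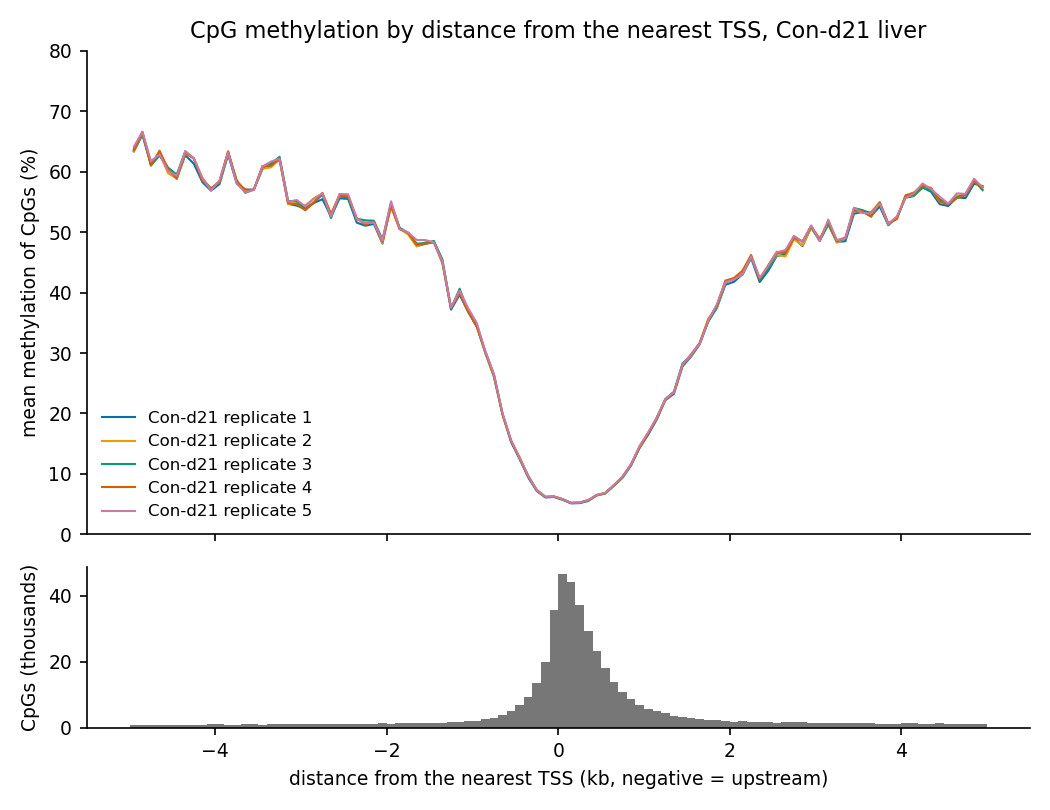
Mean methylation level (percent) of Con-d21 CpGs in 100-bp bins by distance to the nearest TSS (kb, upstream negative), with the 5 libraries as lines, and below it the number of CpGs per bin. The 5 lines lie on each other, and the lowest bin, at 5.19%, is downstream of the TSS.

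The trough at the TSS was not symmetric. In bins of 100 bp the lowest mean was 5.19%, at 100 to 200 bp downstream, and the 100 bp just upstream had 6.25%. At 900 to 1000 bp the level was 34.6% upstream and 14.5% downstream. In wider bands the level upstream was 6.29% within 250 bp, 10.02% at 250 to 500 bp, 23.1% at 500 to 1000 bp and 45.1% at 1 to 2 kb. Downstream, the same bands had 5.44%, 5.83%, 9.23% and 26.1%, so that the downstream side was lower at each distance. Both sides together had 53.5% at 2 to 5 kb, 64.3% at 5 to 10 kb, 71.8% at 10 to 50 kb, 75.1% at 50 to 100 kb and 79.3% at 100 to 500 kb. The 184 CpGs beyond 500 kb had 77.4%.

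The level was also lower where CpGs were dense. Density is given as the observed over expected ratio (o/e) of CpGs in the 500 bp around a CpG, which is 1 where CpGs are as frequent as the C and G content allows. Within 1 kb of a TSS the mean was 67.8% below an o/e of 0.2 and 0.619% at 1 or more. Beyond 5 kb the same classes had 77.8% and 7.63%. At an o/e of 0.4 to 0.6 the distance mattered most, with 22.7% within 1 kb, 52.4% at 1 to 5 kb and 74.9% beyond 5 kb. Far from a TSS, dense CpGs in repeats were higher than dense CpGs outside them. At an o/e of 0.6 to 0.8 beyond 5 kb, CpGs in repeats had 86.9% and the others 36.9%, and at 0.8 to 1 the values were 68.5% and 10.98%. Beyond 5 kb and at an o/e of 0.4 or more, CpGs between genes had higher levels than those in introns, with 31.1% between genes and 9.60% in introns at 0.8 to 1. Below 0.2 both had 77.6%, and at 0.2 to 0.4 introns were slightly higher (77.0%, against 76.2% between genes). Exons beyond 5 kb were above both below 0.2 (80.3%), at 0.2 to 0.4 (82.0%) and at 0.4 to 0.6 (76.9%). At 0.6 to 0.8 exons were below both (45.3%), and from 0.8 on they lay between them.

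**Figure D2:**
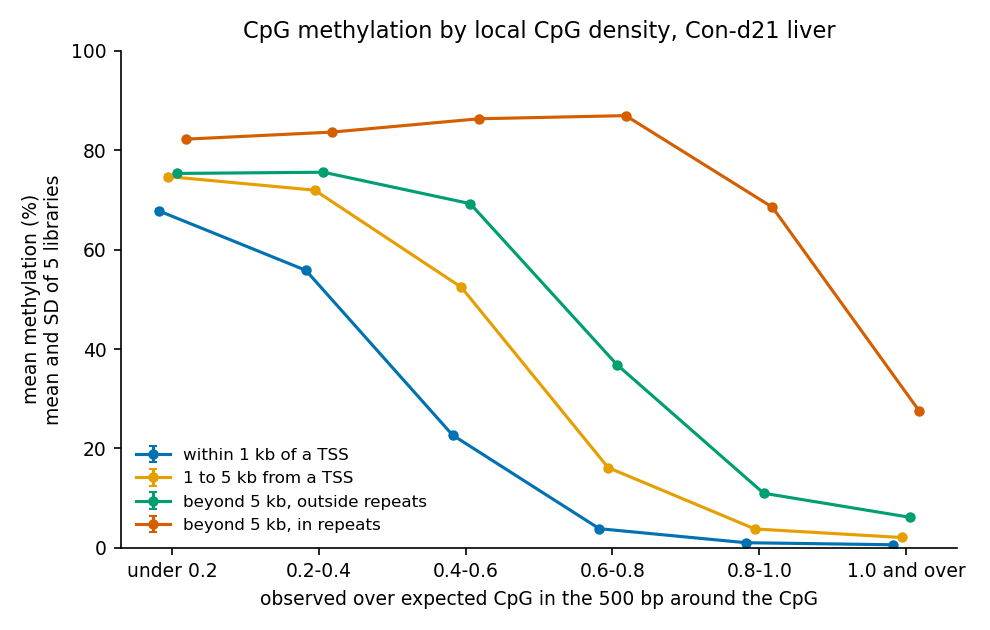
Mean methylation level (percent, mean of 5 Con-d21 libraries) by local CpG o/e in 500 bp, with 1 line each for CpGs within 1 kb of a TSS, at 1 to 5 kb, beyond 5 kb outside repeats and beyond 5 kb in repeats; error bars are the SD and smaller than the points. The lines outside repeats are low at the right end, and the points for repeats reach 68.5% at 0.8 to 1 and 27.6% at 1 or more.

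A promoter was taken as the TSS ± 1 kb with at least 3 member CpGs. Of 51229 annotated autosomal genes 17577 (34.3%) had one, with a median of 19 CpGs, and 6212 (35.3%) shared CpGs with the promoter of another gene. By the mean of the 5 libraries 12935 promoters (73.6%) were under 10% methylated, 1658 (9.43%) lay from 10% to 60% and 2984 (17.0%) were over 60%. The classes are made from the measured levels and are a description. Their median levels were 0.194%, 26.3% and 86.8%. In single libraries the low class held 12923 to 12956 promoters, the intermediate class 1639 to 1666 and the high class 2969 to 3013. The same class was found in all 5 livers for 16768 promoters (95.4%), and no promoter was in all 3 classes. The median SD over libraries was 0.326 points, and counting alone would give 0.318.

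Few promoters depended on where the limits were set: 409 lay within 2 points of 10% and 110 within 2 points of 60%. Among promoters of protein-coding genes with at least 10 CpGs, those just under 10% were Hoxc10 (9.96%) and Slc22a17 (9.99%), and Lamc3 and Paqr5 lay just above it (both 10.01%). At the upper limit Zbtb38 (59.7%) and Foxh1 (59.9%) lay just below, and Mamstr (60.5%) and Minar2 (60.7%) just above. Each of these pairs differed by less than the SD over libraries of its members.

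**Figure D3:**
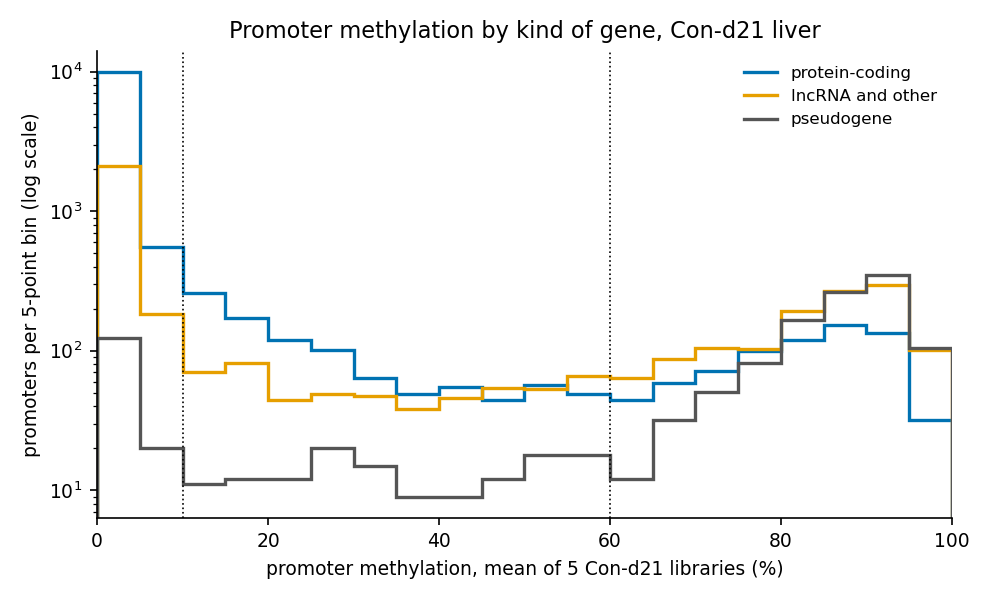
Number of Con-d21 promoters (log scale) in bins of 5 points of methylation level (percent, mean of 5 libraries), with 1 line each for protein-coding genes, long non-coding and other RNA genes, and pseudogenes; dotted lines mark 10% and 60%. Protein-coding promoters pile up at the low end and pseudogene promoters at the high end, where 1054 of 1334 lie over 60%.

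The classes differed by kind of gene. Of 12193 protein-coding promoters 10506 (86.2%) were under 10% and 714 (5.86%) over 60%. Of 2755 promoters of long non-coding RNA genes 1690 (61.3%) were under 10% and 654 (23.7%) over 60%. Of 1334 pseudogene promoters 144 (10.8%) were under 10% and 1054 (79.0%) over 60%. The median o/e of the 2-kb window was 0.648 in the low class, 0.378 in the intermediate class and 0.286 in the high class. At an o/e of at least 0.8, 98.4% of 2095 promoters were under 10% and 1 was over 60%, whereas below 0.2, 457 of 603 (75.8%) were over 60%. Between 0.2 and 0.4 all classes were common, with 21.96% low, 21.2% intermediate and 56.8% high.

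The promoters of genes that every cell uses had the lowest median of the gene lists. All 15 measured of 20 housekeeping promoters were under 10%, against 86.2% of all protein-coding promoters. Their median was 0.0690%, against 0.286% over all protein-coding promoters. The list of DNA methylation genes came next at 0.107%. In replicates 3 and 4 its median was 0%, below the housekeeping medians of 0.0699% and 0.0270%. Actb was the highest housekeeping promoter, with 1.73%, 1.49%, 1.29%, 1.49% and 1.14% in the 5 libraries. The promoters with the most measured CpGs in the low class were those of Ptma, prothymosin (153 CpGs, 0.0595%), Insm1, a neuroendocrine transcription factor (138 CpGs), Cebpb, a liver-enriched transcription factor (136 CpGs, 0.637%, of which 110 also belong to Tmem189), Klf13 (136 CpGs, 0.0431%) and Foxf1, a mesenchymal factor (134 CpGs, 3.24%). Foxf1 was the highest of them in every library, at 2.57% to 4.18%.

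Of the liver lists, most metabolic promoters were low. For comparison, 86.2% of all protein-coding promoters were under 10%, and list shares near it say nothing particular of a list. Fatty acid oxidation and ketogenesis had 13 of 14 measured promoters under 10% (20 listed, median 0.150%), lipogenesis and cholesterol synthesis 17 of 19 (23 listed, median 0.177%) and gluconeogenesis with the urea cycle 8 of 11 (20 listed, median 0.874%). Bile acid and xenobiotic metabolism had 3 of 6 under 10% and 3 intermediate (23 listed, median 6.58%). Hmgcs1, a step of cholesterol synthesis, had no methylated read in 1505 reads (up to 0.199%), and Nr1h3, the oxysterol receptor LXRα, none in 1700 (up to 0.176%), with its 9 CpGs shared with Acp2. Fgf21, a fasting hormone of the liver, was the member over 60%, with 60.6%, 58.1%, 59.7%, 86.4% and 68.3% in the 5 libraries over 6 CpGs. Its SD of 11.7 points was wide, and replicates 2 and 3 were below the limit. Sds, serine dehydratase, was intermediate at 45.7% ± 4.24. Of the plasma proteins that hepatocytes secrete, only 7 of 30 promoters held 3 CpGs, and 4 of these were intermediate, with a list median of 15.9%. The windows of that list were poor in CpGs, with a median o/e of 0.278, against 0.661 for the hepatocyte transcription factors. The hepatocyte transcription factors were low in 12 of 13 (19 listed, median 0.573%), with Cebpa at 0.103% and Foxa2 at 4.06%, and with Hnf4a at 18.8% ± 2.10 over 5 CpGs.

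Genes of the methylation system were low in 9 of 10 measured promoters (17 listed, median 0.107%), near the 86.2% of all protein-coding promoters. Tdg, the glycosylase that excises oxidised methylcytosine, had no methylated read in 7536 reads over 46 CpGs, which allows up to 0.0398%. Uhrf1 (0.0370%), Tet2 (0.0550%), Dnmt3a (0.227%) and Dnmt3b (0.143%) were close to it. Mbd4, a glycosylase for mismatches at CpGs, had 6.22%. Zbtb38, a reader of methylated DNA, was the exception at 59.7% ± 5.31 (11 CpGs). Its libraries lay at 55.5%, 67.3%, 63.3%, 56.7% and 55.9%, so 2 of 5 were over 60%.

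Most promoters of transcription factors of embryonic patterning were low too, and most of these factors have no known role in the hepatocyte. All 50 measured of 59 developmental factors outside the Hox clusters were under 10%, with a median of 1.58%, and 29 of 32 measured Hox promoters (39 listed) with a median of 2.53%, against 86.2% of all protein-coding promoters with a median of 0.286%. These medians are above that of the housekeeping list, 0.0690%. The Hox share under 10% is near that of all protein-coding promoters. The median o/e was 0.654 for the developmental factors and 0.606 for the Hox genes. At an o/e of 0.6 to 0.8, 96.8% of protein-coding promoters were under 10%. Cdx2 of the intestine (1.66%), Sox2 (1.25%), Pax6 of the eye and brain (1.43%) and T of the mesoderm (1.53%) had similar low levels, and Tbx5, a factor of heart and forelimb, had the highest (7.36% ± 0.748). In the Hox clusters, which give the body axis its positions, Hoxa7 had no methylated read in 1316 reads (up to 0.228%). Hoxa6 was highest with 22.5%, 19.9%, 21.5%, 23.6% and 21.8%, and Hoxb1 (10.9% ± 1.82) and Hoxa5 (10.2% ± 3.69) were just above 10%. In Hoxa6 the libraries were close together, and in Hoxa5 they ran from 6.67% to 15.1%. Neuronal genes had 13 of 14 measured promoters under 10% (25 listed), near the share of all protein-coding promoters, the other being Camk2a, a kinase of synapses, at 22.01% ± 1.39.

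Germline genes had the opposite state. Of 23 measured promoters (36 listed) 18 were over 60%, 4 intermediate and 1 under 10%, with a list median of 77.0%, against 5.86% of all protein-coding promoters over 60%. Dpep3, a testis dipeptidase, had 95.1%, 97.4%, 98.2%, 99.1% and 96.3%, and Tuba3a, a testis tubulin, 97.2% ± 0.922. Asz1, of the piRNA pathway, had 90.0% ± 0.862 over 18 CpGs, Dmrtb1, which controls the entry of spermatogonia into meiosis, 81.7% ± 3.34 over 44 CpGs, and Mael, which represses transposons, 77.0% ± 2.12 over 24 CpGs. The synaptonemal complex genes Sycp1, Sycp2 and Sycp3 had 84.3%, 75.6% and 74.5%. The low member was Stag3, a meiotic cohesin, at 0.917%, and all its 25 CpGs also belong to the promoter of Gpc2. Dazl was intermediate and nearly the same in each liver, with 49.3%, 49.9%, 50.2%, 49.3% and 48.7% over 64 CpGs, and its single CpGs reached 98.9% on the high side of a step like that in the stretch printed above. Pou5f1, the pluripotency factor Oct4, had 57.8% ± 7.64 over 3 CpGs.

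**Figure D4:**
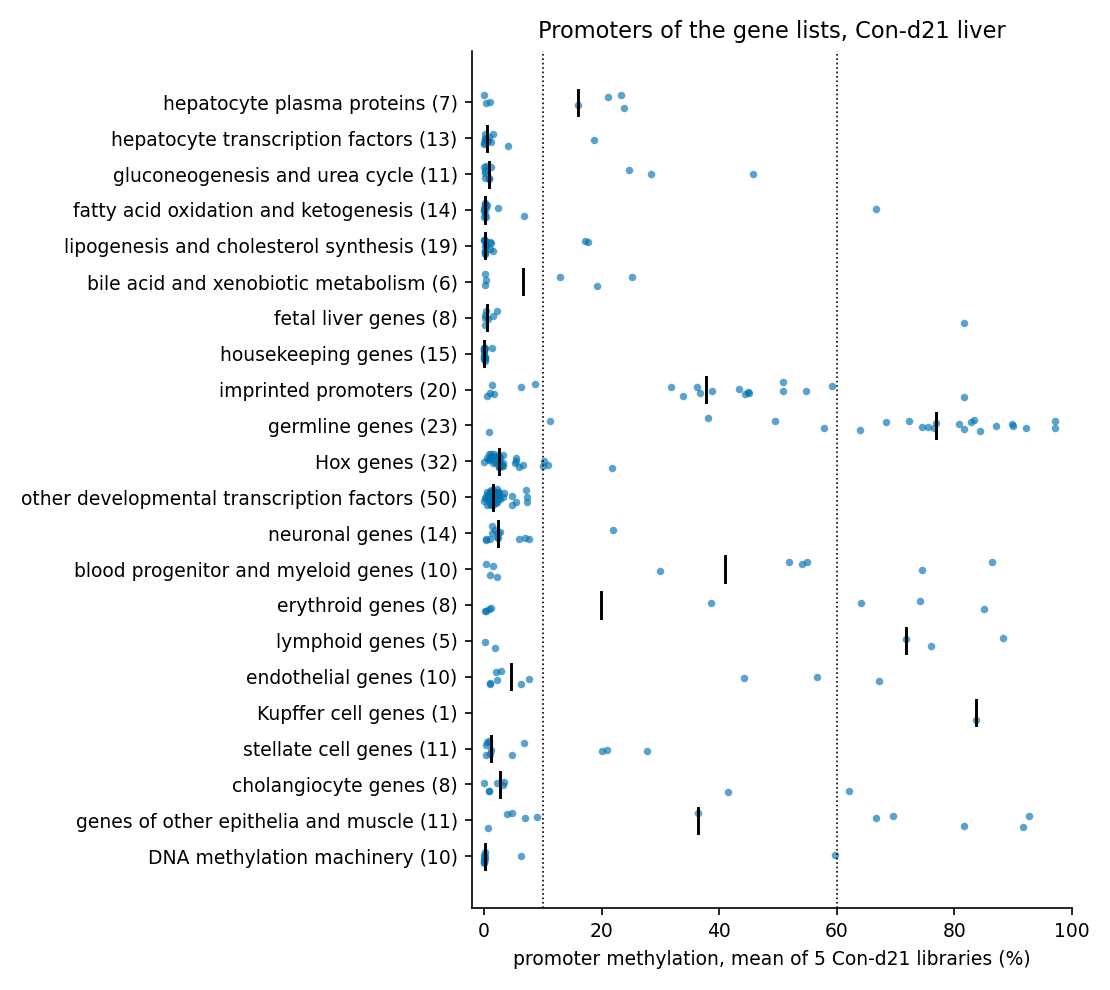
Promoter methylation level (percent, mean of 5 Con-d21 libraries) of each measured member of the gene lists, 1 row per list and 1 point per promoter, with the list median as a bar, the number measured in brackets and dotted lines at 10% and 60%. Germline promoters lie at the high end (median 77.0%), imprinted ones in the middle (median 37.8%) and housekeeping, Hox and developmental ones at the low end.

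Most germline promoters were methylated at a moderate CpG density. Among protein-coding promoters with an o/e of at least 0.4, 127 of 10558 (1.203%) were over 60%, and 16 of the 20 germline members at that density were. Of the 22 protein-coding promoters over 60% with an o/e of at least 0.6, the list held 3, Sycp1, Ddx4 and Mael. Among those with at least 10 CpGs the densest was the shared promoter of Tex14, an intercellular bridge protein of germ cells, and Rad51c, a recombination protein (87.6% ± 2.08, o/e 0.729 and 0.741, all 12 CpGs shared). It was followed by 4933428G20Rik (82.8%, 52 CpGs), Hsf5 (90.6% ± 2.02, 25 CpGs), Dnajb3, a testis chaperone (61.4% ± 9.41), D1Pas1, a testis RNA helicase (87.4%, 29 CpGs), Gm10718 (81.1%) and Rpl10l (93.0% ± 0.879, 23 CpGs). The stretches of Hsf5 and Rpl10l printed above come from this set. Gm10717, Gm10718 and Gm10722 on chromosome 9 belong to 1 group of similarly named predicted genes, and reads of near-identical copies cannot be placed with certainty.

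At the other end were promoters with a 2-kb window poor in CpGs and yet a low level. Among protein-coding promoters under 10% with at least 10 measured CpGs, Cyp2j6 had the lowest o/e, 0.202. It had 2.56%, 2.50%, 0.578% and 2.54% over 12 CpGs in replicates 1, 2, 4 and 5, and no methylated read in 540 reads in replicate 3 (up to 0.556%). These CpGs lay at -6 to 366 bp from the TSS, and the density of that part alone is not given here. Ckmt1, mitochondrial creatine kinase, had 1.01%, Tlr3, a receptor for double-stranded RNA, 0.427% (all 12 CpGs shared with Gm45542), and the zinc finger genes Zfp950 and Zfp937 had 0.690% and 0.423%. Axl, a receptor kinase, had 7.55%, Upk3a, a protein of the bladder lining, 6.599% and Rnf112 9.87%. Rnf112 lay above 10% in 3 of 5 libraries.

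Imprinted genes made up a group of intermediate promoters. Of 20 measured (32 listed) 13 lay from 10% to 60%, 6 under 10% and 1 over 60%, with a list median of 37.8%, against 7.98% of all protein-coding promoters that were intermediate. Peg10 and Sgce, 2 genes expressed from the paternal allele, share all 13 CpGs and had 57.2%, 57.3%, 52.3%, 34.2% and 53.6%. Meg3, a long non-coding RNA of the maternal allele, had 50.3%, 44.4%, 37.4%, 48.4% and 44.9%. Replicate 4 was the lowest at Peg10 and Sgce but not at Meg3. Airn had 42.4%, 47.0%, 32.0%, 39.4% and 32.7%, and Kcnq1ot1, another long non-coding RNA of an imprinted cluster, 43.4%, 28.7%, 41.2%, 33.6% and 34.0%. These genes were chosen after their values were seen. The SD of the 13 promoters over the 5 livers was 1.11 to 13.7 points, with a median of 6.00. Counting would give 2.14 if each CpG were read independently, and over all intermediate promoters the medians were 3.31 and 2.47. CpGs of 1 fragment share reads, so these counting values can be too small. Whether the livers differed beyond counting at these promoters was not tested.

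The low imprinted members were Dio3, thyroid hormone deiodinase (0.589%, 37 CpGs), Phlda2, a restrainer of placental growth (1.10%, 54 CpGs), Zdbf2 (1.39%), Rasgrf1 (1.62%), Plagl1 (6.24%) and Grb10, an adaptor of insulin signalling (8.64%). Each of these windows holds the 5′ end of the gene but need not hold the control region of its cluster. H19, a maternally expressed RNA that is also on the list of fetal liver genes, was the member over 60%, with 65.1%, 81.8%, 87.3%, 86.3% and 88.2% over 3 upstream CpGs. Mkrn3 (36.8% ± 1.11) and Magel2 were intermediate by a mixture, with single CpGs from 6.31% to 92.0% and from 10.6% to 90.1%.

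An even intermediate level was rare. Of 1658 intermediate promoters 601 (36.2%) held CpGs under 10% and CpGs over 60% together, and in 261 (15.7%) every CpG lay from 10% to 60%. The median range between the lowest and highest CpG was 50.7 points. Of the 798 intermediate promoters with at least 10 CpGs, 9 had every CpG between 30% and 70%. These were Sgce and Peg10 (50.9%), Airn (38.7%), Snurf with Gm38393, at the imprinted Snrpn locus (48.3%), and the annotated genes Gm27899 (43.0%), Gm27741 (57.1%), A430078G23Rik (48.4%) and AC157910.6. At least 5 of the 9 promoters are at known imprinted loci (Sgce, Peg10, Airn, Snurf and Gm38393). Sgce and Peg10 have the same 13 CpGs, and so do Snurf and Gm38393, so the 9 promoters are not 9 separate regions. The list was made after the values were seen.

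In part of the intermediate promoters the sides of the TSS differed. Of 518 with 3 CpGs on each side of the TSS, the downstream side was lower in 314 and higher in 204, with a median difference of -11.5 points, and by more than 30 points it was lower in 174 and higher in 72. Nkain1 had 96.6% upstream and 0.266% downstream, and Trrap, a subunit of histone acetyltransferases, 87.7% and 0.0672% over 68 CpGs. Shtn1, an axon protein, had 96.6% upstream and 0.361% downstream. Its promoter mean was 8.21% to 8.51% in single libraries, so it was in the low class and not among the intermediate promoters counted above. In the other direction A830005F24Rik had 0.0835% upstream and 82.8% downstream, Rbm38, an RNA-binding protein, 1.09% and 82.3%, and Bckdk, the kinase of branched-chain keto acid dehydrogenase, 0.640% and 76.5%. The means of these promoters were stable between livers: Nkain1 had 12.7%, 12.5%, 12.5%, 12.9% and 12.9%, and Bckdk 46.5%, 45.2%, 46.4%, 45.4% and 47.3%.

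A few promoters differed widely between the 5 livers. Among those with at least 10 CpGs Tmem267, a membrane protein gene, had 34.4%, 73.7%, 39.9%, 46.8% and 53.9%, an SD of 15.3 points, and 38 of its 40 CpGs also belong to 3110070M22Rik (53.1% ± 14.2). Replicate 2 was high there. Tnxb, tenascin-X of the connective tissue, had 5.08%, 12.1%, 5.62%, 31.8% and 9.66%, with replicate 4 high. Peg13, an imprinted non-coding RNA, had 21.6%, 40.1%, 27.3%, 25.2% and 54.7%, with replicates 2 and 5 high. Ggt5 of glutathione metabolism (61.3% ± 10.9), Ccdc81 (52.3%) and Gm9857 (40.8%) were the others of widest spread among protein-coding genes, and no single library was high in all of them.

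**Figure D5:**
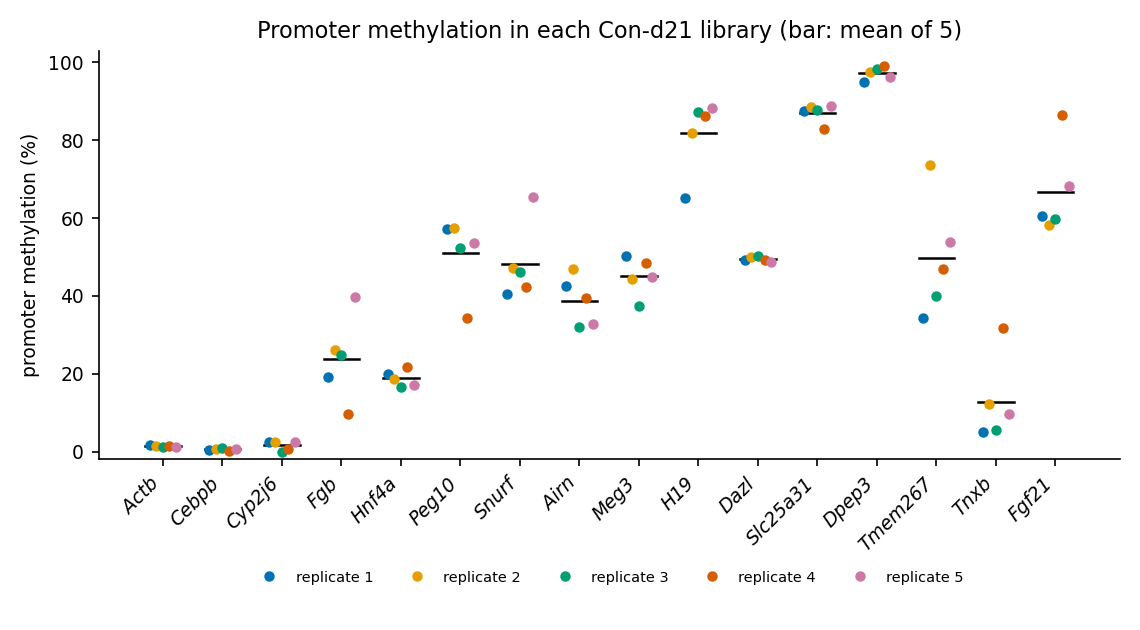
Methylation level (percent) of selected promoters, 1 point for each of the 5 Con-d21 libraries and a bar for their mean. The points of Dazl lie close together, whereas Tmem267 runs from 34.4% to 73.7% and Tnxb from 5.08% to 31.8%.

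Genes of other cell types of the liver had promoters of all classes, against 86.2% under 10%, 7.98% intermediate and 5.86% over 60% among all protein-coding promoters. The only gene of the Kupffer cell list that could be measured, Adgre1 (F4/80), had 78.7%, 84.9%, 83.5%, 82.9% and 88.9% over 4 CpGs. Its window was poor in CpGs (o/e 0.0794), and the other 14 of 15 listed were not measured. In the lymphoid list Cd79b (71.7%), Zap70 (76.0%) and Cd2 (88.3%) were over 60%, while Ebf1 had 1.94% and Vpreb1, whose 45 CpGs all belong to Top3b too, 0.203%. The list of blood progenitor and myeloid genes had 4 promoters under 10%, 4 intermediate and 2 over 60% (10 of 24 measured, median 40.9%). Lyl1 (29.98%), Csf3r (51.9%), Pf4 (54.1%) and Itga2b (54.98%) were intermediate. Cebpe, a factor of granulocytes, had 86.4% ± 2.53 over 16 CpGs, whereas Kit (0.421%) and Tal1 (0.946%), of blood progenitors, had the low levels of dense promoters (o/e 0.71 and 0.72). Stellate cell genes were low in 8 of 11 (18 listed), with the collagens Col1a1 and Col1a2 at 20.9% ± 6.17 and 20.2% ± 3.36 and Pdgfrb at 27.7%. Erythroid genes had 4 promoters under 10%, 1 intermediate and 3 over 60% (8 of 20 measured, median 19.9%). Endothelial genes were low in 7 of 10 (20 listed). Tie1 was the member over 60%, with 58.3% to 76.9% in the 5 libraries. Robo4 (56.7% ± 6.6) and Eng (38.2% to 48.9%) were intermediate. Of genes of other epithelia and muscle, 5 of 11 (34 listed) were over 60%, among them Myog, a factor of muscle (91.7%), and Krt10, a keratin of skin (92.7%). Ckm, muscle creatine kinase, was low at 0.741%, and its 16 CpGs all belong to Klc3 too. No RNA was read here, so the make-up of the livers was not tested.

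Con-d21 was also set against Con-d0, over 745073 CpGs with 10 reads in all 10 libraries. Mean methylation was 40.5%, 40.7%, 40.8%, 40.8% and 40.9% in Con-d21 (40.7% ± 0.120), against 36.1%, 36.1%, 36.2%, 36.2% and 37.6% in Con-d0 (36.4% ± 0.674). The groups did not overlap, with a difference of 4.30 points (exact two-sided permutation test, p = 0.00794, the smallest that 5 against 5 can give, and 0.0106 after Benjamini-Hochberg adjustment over the 4 values compared). Con-d0 spread more than Con-d21 through replicate 5, and its other 4 lay at 36.1% to 36.2%. The exact permutation test takes the spreads of both groups as equal. As a share of 16787 promoters, those over 60% were 16.0% in Con-d21 and 14.7% in Con-d0, a difference of 1.25 points, and those under 10% were 75.1% and 76.1%, a difference of -1.05 points (exact permutation p = 0.00794 each). The intermediate share was 8.96% ± 0.0554 in Con-d21 and 9.15% ± 0.199 in Con-d0, a difference of -0.194 points that missed the threshold (exact permutation p = 0.0952) and whose sign depended on the coverage minimum. Sex and maternal treatment in pregnancy were the same. Age, the way of delivery, nursing, the culling of litters and the fast before collection changed together and cannot be told apart. The cell make-up was not measured and cannot be told apart from them either.

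The class was the same at both ages for 16015 of 16787 promoters, with 12495 under 10%, 1122 intermediate and 2398 over 60% at both. Of those that changed class, 285 were over 60% in Con-d21 and intermediate in Con-d0, and 98 had the reverse. A further 278 were intermediate in Con-d21 and under 10% in Con-d0, and 109 had the reverse. Of the 17577 Con-d21 promoters, 409 lay within 2 points of 10% and 110 within 2 points of 60%. Promoters near a limit can change class by counting error, and how many did so was not tested. The imprinted promoter of Nap1l5 had 59.2% ± 5.69 in Con-d21 and 38.6% ± 2.61 in Con-d0 over the same 18 CpGs, while Dazl had 49.5% ± 0.621 in Con-d21 and 48.9% ± 1.10 in Con-d0. Tex14 had 87.2% ± 2.52 in Con-d21 and 84.0% ± 3.65 in Con-d0 over 11 CpGs. These 3 were chosen after their values were seen, and single promoters were not tested.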

How the data were processed

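Liver DNA of 5 Con-d21 males was read by RRBS, with 5 Con-d0 libraries for comparison, grouped by the sample titles. For each CpG of a library the authors deposited the count of methylated and of unmethylated reads, not normalized, and the percent methylated computed from them. Per the submitters' processing notes FastQC, Trim Galore, Bismark, BWA and the build mm10 were used; their versions, deduplication and the merging of strands are not given in the sources used here.

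Levels were computed here from the counts, averaged with equal weight over CpGs and then over libraries. CpGs of the 19 autosomes with at least 10 reads in all 5 libraries were kept, and positions that are not CG in GRCm38 (0.165% to 0.191% per library) were left out. Genes, TSSs and exons came from GENCODE M21, where the study used an earlier release, and repeats from the soft-masked genome. Counting error is the binomial SD, and for promoters it takes the CpGs as read independently. Groups were compared with exact permutation tests at 0.05. Python 3.11.15, numpy 2.4.6, pandas 2.3.3 and matplotlib 3.10.9 were used, and the scripts were tested on simulated data. The study had 5 litters or pregnant dams per group and age. That each of the 5 replicates came from a separate litter is inferred from this and is not stated.

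Named promoters were the lowest, highest and odd ones of each gene list, the 2 on either side of each class limit, those with the largest SD, the most CpGs, the most unusual density for their class and the largest difference between sides. Apart from members of the gene lists, of which H19, Meg3, Peg13, Kcnq1ot1 and Airn are non-coding, these were promoters of protein-coding genes. The text gives a part of them. The members, the lists and this rule were chosen with earlier results of these data known. Alternatives changed the read minimum, the window, the CpG minimum, the TSS set, the weighting and the libraries.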

Additional observations from a re-analysis of the deposited data

Results flagged for a closer look

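Among the promoters named by rule, 12 of 129 (9.30%) had 1 of the 5 Con-d21 libraries apart from the other 4 by the gap test of Dixon. Chance gives about 1 in 20 for independent sets of normally spread values. Some of the 129 were picked for a large SD over these libraries, some share CpGs, and some were 0 in 4 libraries. The 9.30% therefore cannot be read against that rate. No library was apart in any of the 6 means over CpG classes. In 8 of the promoters the libraries spanned less than 2 points, and in 3 more than 10.

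The widest were H19, with 65.1% in replicate 1 and 81.8% to 88.2% in the other 4, Tnxb, with 31.8% in replicate 4 and 5.08% to 12.1% in the others, and Minar2, with 69.4% in replicate 5 and 57.4% to 59.6% in the others. H19 rests on 3 CpGs. A830005F24Rik had 20.98% in replicate 3 and 22.1% to 22.5% in the others, and Gfi1 had 0.840% in replicate 1 and 1.64% to 1.91% in the others.

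The remaining ones were at or near 0 in the other libraries. Replicate 3 had 0.121% at Slc37a4, 0.105% at Gata6, 2.22% at Zfp950 and 1.87% at Zfp937. Replicate 5 had 0.160% at Hadha, 1% at Klf1 and 1.39% at Tlr3. These values rest on few methylated reads, and their sources were not tested.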

How the results depend on the processing

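Means are of the CpGs that pass the read minimum, so its choice moved them. The order all CpGs, within 1 kb of a TSS, beyond 5 kb, exons, introns, between genes is used in the following 5 lists. With 5 reads the means were 43.0%, 8.07%, 71.7%, 26.3%, 48.5% and 56.2%, and with 20 reads 37.1%, 6.67%, 68.4%, 22.8%, 42.4% and 50.4%. Without CpGs above the 99th percentile of reads they were 41.7%, 7.54%, 71.4%, 25.3%, 47.1% and 55.5%, with libraries thinned to the smallest 40.9%, 7.397%, 70.8%, 24.7%, 46.3% and 54.6%, and weighted by reads 38.9%, 9.08%, 69.5%, 23.3%, 44.7% and 53.1%. With the TSSs of protein-coding genes only, the level was 3.38% within 1 kb and 68.6% beyond 5 kb.

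Promoters under 10% stayed within 1.5 times their number in every alternative. With 20 reads 1072 were intermediate and 1564 over 60%, with protein-coding TSSs 973 and 714, with at least 10 CpGs 798 and 568, and with windows of ± 2 kb 2876 and 4561. With ± 500 bp 1050 were intermediate. Leaving out 1 library at a time gave means of 41.4% to 41.8%, 7.49% to 7.67%, 71.2% to 71.3%, 25.03% to 25.4%, 46.8% to 47.3% and 55.2% to 55.4%, and 12968 to 13042, 1656 to 1700 and 3021 to 3126 promoters.

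Con-d21 minus Con-d0 ran from 4.21 to 4.60 points for all CpGs, from -1.10 to -0.987 for promoters under 10% and from 1.22 to 1.39 for those over 60% when 1 library was left out. The intermediate share changed with the setting: -0.507 points with 5 reads and -0.289 without Con-d0 replicate 5 (adjusted exact permutation p = 0.00794 each), 0.304 with 20 reads (0.00794), and -0.289 to -0.159 over the libraries left out. With the replicate block (exact sign-flip permutation test, which cannot go below 0.0625) the differences were 4.30, -1.05 and 1.25, with an adjusted p of 0.0833. The numbers mark no shared litter, and the deviations of same-numbered samples correlated at -0.000445 to 0.00430, with 3 of 5 correlating best with their own number.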

Other observations

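The level differed between chromosomes. Chromosomes 11 (36.5%), 19 (36.6%) and 2 (37.6%) had the lowest mean over the Con-d21 CpGs and chromosome 10 the highest (44.0%). The share of CpGs within 1 kb of a TSS was 42.9%, 44.7% and 42.0% on chromosomes 11, 19 and 2, against 38.9% on chromosome 10. Beyond 5 kb the means of these chromosomes were 66.1%, 69.4%, 67.8% and 73.6%. The part of the TSS share in the order was not tested. The share of promoters over 60% ran from 11.9% on chromosome 19 to 21.6% on chromosome 14.

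Inside genes, more than 5 kb from any TSS, the level followed the class of the promoter only weakly. The median gene body had 84.0% where the promoter was under 10% (4638 genes), 80.4% where it was intermediate (403 genes) and 75.3% where it was over 60% (204 genes). Genes of the 3 classes differ in length and CpG density, and the part of these in the order was not tested.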
